A study of Brassica rapa with 12 samples.

Results

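Plants of Brassica rapa (Chinese cabbage) in which GIGANTEA had been edited, called gi here, were compared after 1 h at 37 °C and without heat at 22 °C. The 6 gi libraries were chosen by their titles, out of 12 libraries in the series: 3 at 37 °C and 3 at 22 °C. The other 6 libraries are wild-type plants, 3 after 1 h at 37 °C and 3 at 22 °C. Both genotypes are of the cultivar Chiifu. The labels call the gi plants late flowering and the wild type early flowering. All plants were 2 weeks old, were grown on MS medium and were taken whole. The labels give neither the kind of edit, nor the number of edited lines, nor how many plants went into a library. The spread behind each p-value is therefore that between libraries, and part of it may be technical.

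In plants, high temperature activates heat shock transcription factors, which switch on genes for chaperones, the proteins that keep other proteins folded. At the same time, transcripts of many growth and housekeeping genes decline. GIGANTEA is a clock protein that also promotes flowering by day length, and in Arabidopsis it takes part in responses to stress. None of the gene IDs in the tables could be paired with a name, so the response is described by size, level and share of counts. No ID is tied to a function here, the tissue could not be checked against marker genes, and how much transcript the edited gene gave was not analysed here.

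Total counts in genes were 36778289 to 57777477 in the gi libraries at 37 °C and 43592355 to 47703118 at 22 °C. A count of 3, taken as the detection floor of a library, was worth 0.0738 to 0.0944 CPM at 37 °C and 0.0513 to 0.0532 CPM at 22 °C (counts scaled to a common library size with TMM, a factor per library that assumes most genes are unchanged). This floor covers counting error only. Replicate 1 at 37 °C stood apart from the other heated libraries. Its chi-square per degree of freedom was 69.5 and 84.4 against replicates 2 and 3, which gave 17.5 against each other. Replicate 1 at 22 °C also stood apart, with 122.6 and 142 against 46.1 between the other two. Among the wild-type libraries used below, replicate 1 at 22 °C stood further apart, with 416 and 372 against 79.98 between replicates 2 and 3.

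Of 28846 genes tested in gi plants, 4685 were higher after heat and 4082 were lower (edgeR's quasi-likelihood test, Benjamini-Hochberg adjusted p under 0.05). These are 16.2% and 14.2% of the genes tested, 30.4% together. In 8698 of the 8767 called genes the 3 libraries at 37 °C did not overlap with the 3 at 22 °C, where 52.7% of all genes tested did not overlap. In bulk RNA of whole plants, fewer cells of a type and less RNA per cell cannot be told apart. Both counts of calls rested on all libraries: without replicate 1 at 37 °C, 3618 genes were raised and 2596 lowered, and without replicate 2 at 37 °C, 3930 and 2460. Without replicate 2 at 22 °C they were 3753 and 2676.

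The size distribution had a longer tail of rises than of falls under TMM. The detection floor limits how far a low gene can be seen to fall, and rises have no such limit. At 22 °C, 193 lowered genes were under 1 CPM and 1394 were at 1 to 10 CPM. Among raised genes the median log2 change was 1.63, with quartiles of 0.96 and 2.80 and a 95th percentile of 6.25. Among lowered genes the median was -1.29, with quartiles of -1.90 and -0.91 and a 5th percentile of -3.41. The median standard error of a log2 change was 0.27 among raised genes and 0.29 among lowered genes. The extreme fitted changes were 14.32 upward and -10.23 downward. Over all genes tested the median log2 change was -0.07, and the central 90% lay between -1.99 and 2.63.

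**Figure D1:**
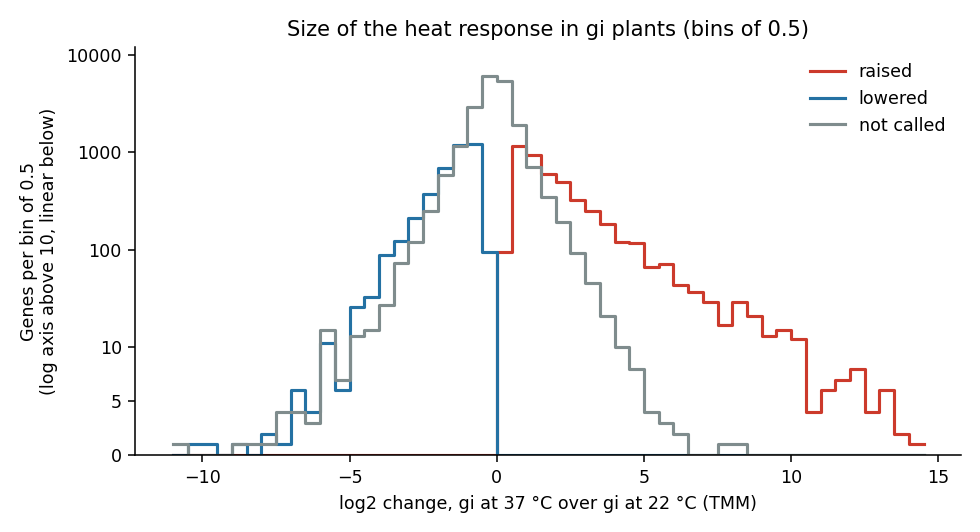
Number of genes (log axis above 10, linear below) against the log2 change of gi at 37 °C over gi at 22 °C, in bins of 0.5, for raised, lowered and uncalled genes. Raised genes reach 14.32 while the lowered genes end at -10.23. Beyond an 8-fold change raised genes (1061) outnumber lowered genes (302), where total counts in place of TMM give 753 and 738. The detection floor limits falls of low genes.

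Small changes were split almost evenly between the directions and large ones were not. Changes under 2-fold made up 1256 raised and 1305 lowered genes. Between 2- and 4-fold there were 1542 raised and 1889 lowered genes, so falls were the more frequent here. Between 4- and 8-fold the counts were 826 and 586, between 8- and 32-fold 669 and 269, and at 32-fold or more 392 and 33. Changes of at least 8-fold thus involved 1061 raised genes, 3.68% of those tested, and 302 lowered genes, 1.05%. At 32-fold or more the shares were 1.36% and 0.114%. The detection floor limits large falls of low genes, so these counts are not a like comparison of the directions.

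This balance holds for scalings that assume most genes unchanged, and it was lost with total counts. Scaling by total counts gave 2520 raised and 11075 lowered genes, so 18.5% of called genes were raised against 53.4% with TMM. All genes together then had a median log2 change of -0.68. Of the changes of at least 8-fold, 753 were then upward and 738 downward. DESeq2, which also scales on the bulk of genes, gave 1114 and 366. Without replicate 1 at 37 °C the downward count under TMM was 191. The amount of RNA per plant was not measured, so a change is relative to the bulk of genes under TMM and relative to all counts under total counts.

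The share of a library's counts held by a group of genes needs no scaling factor, though calls under TMM formed the groups here. Such a share is not a share of molecules, since longer genes give more counts and gene lengths were not used here. Because the same libraries chose the raised and lowered genes, their shares are a description. Raised genes took 57.3%, 52.8% and 51.2% of the counts in replicates 1, 2 and 3 at 37 °C, and 9.90%, 10.4% and 10.8% at 22 °C. The heated libraries lay far above the unheated ones, with replicate 1 the highest. Lowered genes took 4.68%, 5.80% and 6.13% of the counts at 37 °C and 20.6%, 21.7% and 20.6% at 22 °C. The 20079 genes not called took 40.7% ± 2.39 at 37 °C and 68.7% ± 0.780 at 22 °C (SD, n = 3 each). Genes left untested for low counts held 0.0233% ± 0.00768 and 0.0350% ± 0.00764.

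**Figure D2:**
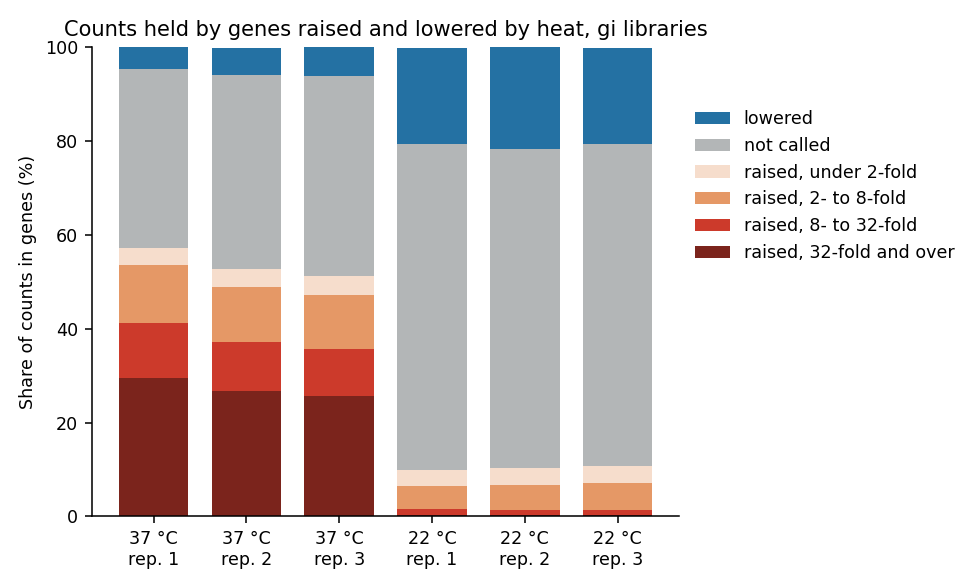
Share of the counts in genes (%) held in each gi library by genes raised, lowered or not called, the raised ones split by fold change, with the 3 libraries at 37 °C left of the 3 at 22 °C. Genes raised 32-fold or more hold 25.7% to 29.5% at 37 °C and 0.204% to 0.226% at 22 °C.

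Most of the gain came from few, strongly raised genes. The 392 genes raised 32-fold or more held 29.5%, 26.8% and 25.7% of the counts at 37 °C in replicates 1, 2 and 3, and 0.226%, 0.204% and 0.210% at 22 °C. The 669 genes raised 8- to 32-fold held 10.7% ± 0.974 at 37 °C and 1.19% ± 0.0499 at 22 °C. Genes raised 4- to 8-fold held 5.43% ± 0.146 and 1.63% ± 0.0937, and those raised 2- to 4-fold 6.41% ± 0.216 and 3.70% ± 0.239. The 1256 genes raised less than 2-fold held 3.88% ± 0.112 and 3.62% ± 0.171, and here the libraries of the 2 temperatures overlapped. For 4300 of the 4685 raised genes the mean share of counts was itself higher at 37 °C.

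Among called genes, the loss of share was spread over more genes than the gain. Lowered genes with changes of 2- to 4-fold held 2.62% ± 0.370 of the counts at 37 °C and 10.5% ± 0.298 at 22 °C. Those lowered less than 2-fold held 2.45% ± 0.313 and 6.38% ± 0.113. The 269 genes lowered 8- to 32-fold held only 0.0450% ± 0.0115 and 0.739% ± 0.174, and the 33 genes lowered 32-fold or more held 0.0113% ± 0.00689 at 22 °C. Summed over raised genes whose share was higher at 37 °C, the gain was 43.5 percentage points, and 44 genes made up 50% of it and 540 genes 90%. The lowered genes lost 15.4 points, of which 211 genes made up 50% and 1771 genes 90%. The 10 largest contributors accounted for 20.0% of the gain of raised genes and 12.2% of the loss of lowered genes. Genes not called changed by -27.99 points, more than the lowered genes, and are not part of that loss. The split between lowered and uncalled genes rests on TMM: with total counts, 11075 genes were called lowered in place of 4082.

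BraA06g020960.3.5C had the largest gain in share of counts. It had 16058, 11640.2 and 10709 CPM in replicates 1, 2 and 3 at 37 °C, and 51.2, 41.4 and 53.01 CPM at 22 °C. This made it the most abundant gene of the heated plants by mean share, at 1.02% ± 0.0546 of the counts, while it ranked 3233 in unheated plants. Its log2 change was 8.04 (SE 0.53, edgeR adjusted p = 1.79e-06). In wild type the log2 change was 8.93 (SE 0.55), and the difference between genotypes was -0.89 (SE 0.56, adjusted p = 0.621).

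BraA06g036790.3.5C followed, and it was low without heat, though above the detection floor in each library. It had 15168, 11076 and 9786 CPM at 37 °C, and 2.29, 0.804 and 0.959 CPM at 22 °C. Its mean share was 0.956% ± 0.0652 of the counts at 37 °C and 0.000167% ± 9.5e-05 at 22 °C, ranks of 2 and 21946. The log2 change was 13.12 (SE 0.75, edgeR adjusted p = 7.59e-07). The wild type gave 13.01 (SE 0.75), with a difference of 0.11 (SE 0.66, adjusted p = 0.974). By its ID it lies on chromosome A06, as does the gene before.

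Among called genes without overlap, the largest losses were smaller than these gains. Over all genes, called or not, 6 genes lost more than the first of them, and the lowest difference was -0.672 percentage points. BraA02g005690.3.5C had 1547, 901 and 881 CPM at 37 °C, against 3113, 3082 and 2019.8 CPM at 22 °C, and its share was 0.0874% ± 0.0145 against 0.339% ± 0.0637. It ranked 130 with heat and 8 without. The log2 change was -1.30 (SE 0.40, edgeR adjusted p = 0.0306). The call was lost without any 1 of 4 libraries, with adjusted p of 0.0815 and 0.0823 without replicates 1 and 2 at 22 °C, and 0.111 and 0.105 without replicates 2 and 3 at 37 °C. In wild type the log2 change was -0.45 (SE 0.40, edgeR adjusted p = 0.406), so the loss was not called there. The difference between genotypes was -0.85 (SE 0.56, adjusted p = 0.637).

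BraA09g010160.3.5C had 354, 405 and 248 CPM at 37 °C and 672, 3462 and 2288 CPM at 22 °C. The groups did not overlap, but the unheated libraries differed widely among themselves, with replicate 1 the lowest. Its share was 0.0271% ± 0.00685 at 37 °C and 0.269% ± 0.174 at 22 °C. The log2 change was -2.67 (SE 0.58, edgeR adjusted p = 0.00576). Without single libraries it was -3.10 (replicate 1 at 22 °C left out) to -2.13 (replicate 2 at 22 °C left out, adjusted p = 0.0232). In wild type the log2 change was -1.32 (SE 0.56, edgeR adjusted p = 0.0885), so the loss was not called there. The difference between genotypes was -1.35 (SE 0.78, adjusted p = 0.589).

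Counts were held by fewer genes in the heated gi libraries. The 100 most abundant genes of each library held 36.2%, 32.6% and 31.8% of the counts in replicates 1, 2 and 3 at 37 °C and 22.2%, 20.9% and 18.7% at 22 °C. The difference was 12.9 percentage points, and 11.6 without replicate 1 at 37 °C. Every heated library lay above every unheated one (2-sided exact permutation p = 0.1, the lowest that 3 against 3 libraries can reach). It took 320, 458 and 504 genes to reach 50% of the counts at 37 °C, against 1087, 1214 and 1384 genes at 22 °C (exact permutation p = 0.1).

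The very top of the distribution behaved differently from the top 100. The 10 most abundant genes held 8.88% ± 0.559 at 37 °C and 7.37% ± 1.09 at 22 °C, and the libraries overlapped (exact permutation p = 0.2). The single most abundant gene held less at 37 °C, 1.02% ± 0.0546, than at 22 °C, 1.502% ± 0.159. Genes with at least 0.1% of the counts numbered 113, 109 and 109 at 37 °C and 82, 78 and 77 at 22 °C. The curves of cumulative share cross at low ranks, with the heated libraries higher beyond until the curves meet again near their end. At rank 23796, replicate 2 had 99.8397% at 37 °C and 99.8463% at 22 °C. The number of genes at 1 CPM or more was 22488 ± 689.8 at 37 °C and 22528 ± 346 at 22 °C under TMM, and the libraries overlapped (exact permutation p = 0.8). With total counts the numbers were 21810.0 ± 1149 and 23196 ± 500.4, and the libraries did not overlap (exact permutation p = 0.1).

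**Figure D3:**
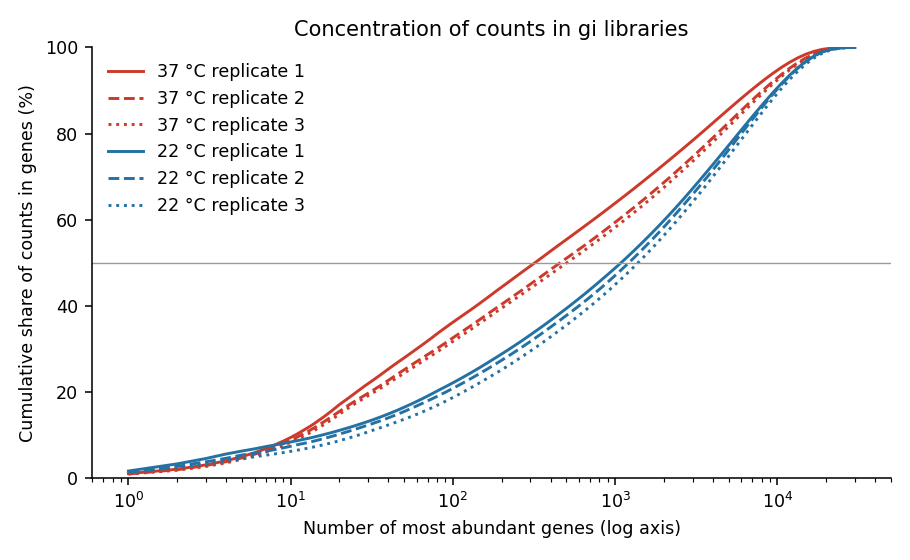
Cumulative share of counts in genes (%) against the number of most abundant genes (log axis) in each gi library, at 37 °C and at 22 °C. At rank 1 the heated libraries lie lower (0.974% to 1.08%, against 1.38% to 1.68% without heat), the curves then cross, and the line at 50% is crossed at 320 to 504 genes with heat and at 1087 to 1384 genes without.

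The lists of most abundant genes were largely exchanged. They were chosen from the libraries that enter the contrast, so the calls among them are a description, beside 16.2% raised and 14.2% lowered of all genes tested. By mean share, 19 genes stood among the top 100 at both temperatures. Of the top 100 at 37 °C, 84 were called raised, 77 of them at least 8-fold, and 0 lowered by edgeR, where 1 gene was lowered by DESeq2 and 1 had an unadjusted edgeR p under 0.05. They held 33.4% ± 2.26 of the counts at 37 °C and 9.30% ± 1.01 at 22 °C. At 22 °C, 32 of them had under 10 CPM and 10 had under 1 CPM. Of the top 100 at 22 °C, 25 were called lowered, 5 raised and 70 neither. Their share was 10.9% ± 0.305 at 37 °C and 20.3% ± 1.64 at 22 °C. Of these 100 genes, 95 had a lower mean share at 37 °C, among them all 70 that were not called.

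How often a gene was raised depended on which level was used to class it. By the mean of all 6 gi libraries, the share of genes raised was 6.72% under 1 CPM, 12.8% at 1 to 10 CPM, 21.5% at 10 to 100 CPM, 31.8% at 100 to 1000 CPM and 59.3% at 1000 CPM and over. The share lowered was 5.67%, 16.6%, 16.5%, 12.4% and 7.08% in the same classes. Low counts limit calls in the lowest class, where the median standard error of a log2 change was 0.86, against 0.23 at 10 to 100 CPM. The mean over both temperatures itself includes the rise, so strongly raised genes move up in this classification.

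Classed by the level at 22 °C, the order turned round. Of the 63 genes at 1000 CPM or more at 22 °C, 1.59% were raised and 30.2% lowered. Of the 1212 genes at 100 to 1000 CPM, 8.42% were raised and 23.6% lowered, while at 10 to 100 CPM the shares were 16.8% and 19.2%. At 1 to 10 CPM 17.8% were raised and 13.7% lowered, and under 1 CPM 14.2% and 3.22%. The 22 °C libraries of gi enter the contrast too. The level in the 3 wild-type libraries at 22 °C, which are outside the contrast, gave nearly the same shares. By it, 14.7% of genes under 1 CPM were raised and 4.78% lowered, and at 100 to 1000 CPM 8.44% were raised and 22.5% lowered. Of the 36 genes at 1000 CPM or more in unheated wild type, 0 were raised and 27.8% lowered by edgeR. Of these 36, 0 were raised by DESeq2 and 0 at an unadjusted edgeR p under 0.05. Large rises were concentrated at the low end in the same way. Of the 5997 genes under 1 CPM in gi at 22 °C, 501 were raised at least 8-fold, and of the 1212 at 100 to 1000 CPM, 17. The filter for low counts used all 12 libraries, so a gene silent at 22 °C in both genotypes was tested only through heated libraries. The classes under 1 CPM at 22 °C, in gi or wild type, were thus partly picked by the heated libraries. Their shares are a description.

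**Figure D4:**
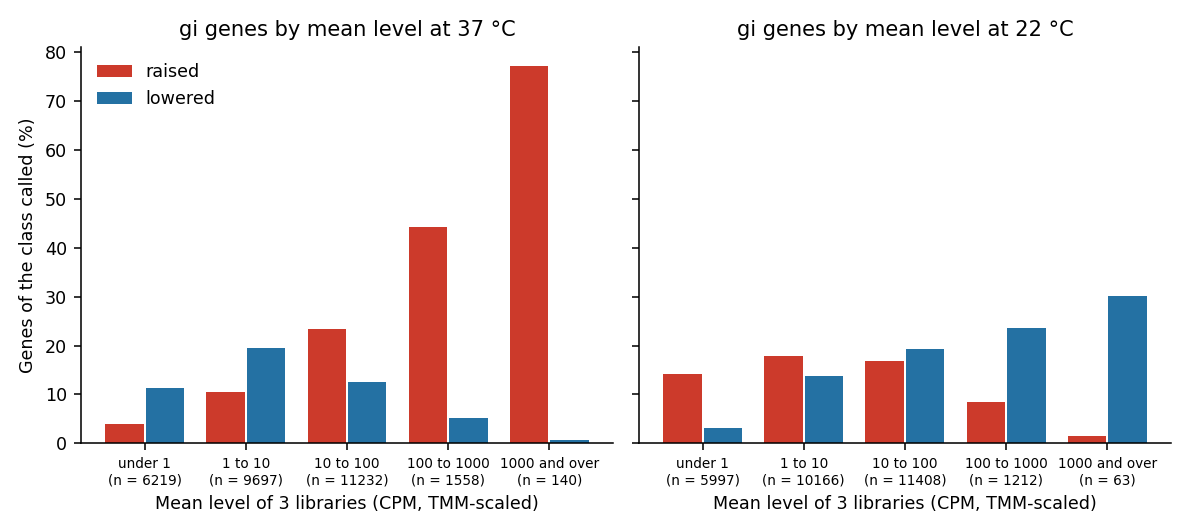
Share of the genes of a level class (%) called raised or lowered in gi, with classes by the mean level at 37 °C on the left and at 22 °C on the right (CPM, TMM-scaled, n is the number of genes). Raised genes make up 77.1% of the 140 genes at 1000 CPM or more with heat, and 1.59% of the 63 such genes without heat.

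Seen by where genes ended, 140 genes averaged 1000 CPM or more at 37 °C, and 77.1% of them were raised and 0.714% lowered. Of these genes, 29 were in that class at 22 °C as well, 30 came from 100 to 1000 CPM, 40 from 10 to 100 CPM, 27 from 1 to 10 CPM and 14 from under 1 CPM. In the other direction, 34 of the 63 genes at 1000 CPM or more at 22 °C had 100 to 1000 CPM at 37 °C and 0 had less, and 18 of the 34 were called lowered. Of 1212 genes at 100 to 1000 CPM at 22 °C, 32.8% had 10 to 100 CPM at 37 °C and 3 genes had less.

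Rises crossed more level classes than falls did, which the classes themselves partly fix. At 22 °C, 193 lowered genes were under 1 CPM with no class below, and 1394 were at 1 to 10 CPM with 1 class below. Among raised genes, 851 were under 1 CPM with 4 classes above. Of the raised genes, 48.3% stayed in their class, 45.0% rose by 1 class, 256 rose by 2, 45 by 3 and 14 by 4 classes. Of the lowered genes, 57.7% stayed, 42.0% fell by 1 class, 15 fell by 2 and 0 by more. At least 1 CPM at 37 °C and under 1 CPM at 22 °C was found for 604 raised genes, and 32 of them had at least 100 CPM at 37 °C. Those 32 genes took 4.59% ± 0.369 of the counts at 37 °C and 0.00153% ± 0.000594 at 22 °C. Of the lowered genes, 507 had under 1 CPM at 37 °C and at least 1 CPM at 22 °C, and 12 of these had 10 CPM or more at 22 °C. Counts of 0 in all 3 libraries at 22 °C were found for 45 raised genes, and at 37 °C for 13 lowered genes. Such genes passed the filter for low counts only through other libraries.

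Genes chosen in the wild-type libraries allow the response of gi to be measured in libraries that did not choose them, although 1 estimate of the spread was shared. In wild type, 18.2% of the genes tested were raised by heat and 16.5% lowered. The 5241 genes raised in wild type held 61.7%, 57.8% and 55.9% of the counts in gi replicates 1, 2 and 3 at 37 °C and 16.3%, 17.5% and 17.9% at 22 °C, a difference of 41.2 percentage points (exact permutation p = 0.1). The 4771 genes lowered in wild type held 3.25%, 4.09% and 4.53% at 37 °C and 13.4%, 13.3% and 13.4% at 22 °C, a difference of -9.43 points (exact permutation p = 0.1). Heated and unheated gi libraries did not overlap in either set. Chosen without wild type at 22 °C replicate 1, the sets differed by 40.1 and -9.88 points. With total counts in place of TMM in the fit that chose them, the lowered set's difference was -32.8 points.

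Across classes of increasing rise in wild type, the median rise in gi increased too. For the 669 genes raised 8- to 32-fold in wild type the median log2 change was 3.53 in gi and 3.77 in wild type, and 90.6% were called raised in gi. At 32-fold or more, 382 genes had medians of 6.47 in gi and 6.46 in wild type, and 96.1% were called raised in gi. Of the 1776 genes raised under 2-fold in wild type 43.9% were called raised in gi, where the median was 0.47 against 0.73 in wild type. The background of raised genes in gi was 16.2%.

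Falls carried over less evenly. The 2157 genes lowered 2- to 4-fold in wild type had a median log2 change of -1.05 in gi and -1.42 in wild type, and 56.7% were called lowered in gi. For the 437 genes lowered 8- to 32-fold the medians were -2.21 in gi and -3.53 in wild type, and 45.1% were called. The 97 genes lowered 32-fold or more had medians of -2.17 in gi and -6.26 in wild type, and 31.96% were called. As a mean share of counts, these 97 genes took 0.0945% in unheated wild type and 0.000714% in heated wild type. Their mean level in heated wild type thus lay near the detection floor, where a count of 3 was worth 0.0871 to 0.0964 CPM. The wild-type fold of these 97 genes therefore rests on few counts. A difference between genotypes was called for 11 of them, of 34 among all genes tested. That test shares the wild-type change that chose them. The background of lowered genes in gi was 14.2%. Without wild type at 22 °C replicate 1, the genes then lowered 8- to 32-fold had medians of -2.15 in gi and -3.50 in wild type, and 53.4% were called. Those lowered 32-fold or more had -2.39 and -6.22, and 44.8% were called. The reverse choice showed the same asymmetry. The 269 genes lowered 8- to 32-fold in gi had medians of -3.55 in gi and -2.77 in wild type. The 669 genes raised 8- to 32-fold in gi had 3.75 and 3.59. For the 33 genes lowered 32-fold or more in gi the medians were -6.00 in gi and -2.45 in wild type. The median standard error of these 33 was 1.59 in gi, and their median level in unheated gi was 0.68 CPM. In each class the genotype that chose the genes had the larger median, except for genes raised 32-fold or more in wild type, where without that library the medians were 5.90 in gi and 6.67 in wild type.

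**Figure D5:**
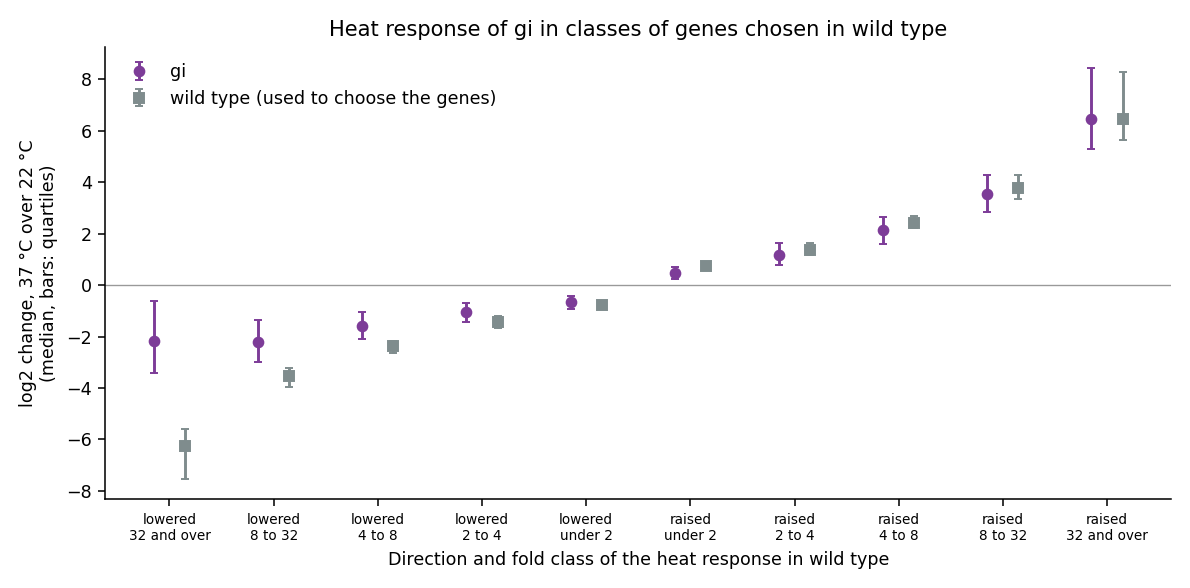
Median log2 change (37 °C over 22 °C, bars from the 25th to the 75th percentile over genes) in gi and in wild type for genes classed by direction and fold in wild type. Among raised classes gi lies close to wild type, from 0.47 to 6.47. Among lowered classes gi has -2.21 (8- to 32-fold) and -2.17 (32-fold or more), while wild type, which chose the genes, reaches -6.26. The 97 genes lowered 32-fold or more took 0.0945% of the counts of unheated wild type and 0.000714% of those of heated wild type, near the detection floor.

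The difference in heat response between the genotypes was called for 18 of the 8767 genes that heat changed in gi (edgeR's quasi-likelihood test of the interaction), 13 of them raised and 5 lowered. This is 0.205% of them, against 0.118% of all genes tested and 0.0797% of the genes not called for heat in gi. The interaction includes the change in gi that chose these genes, so these shares are a description. The count was 9 with the replicate block, 5 to 8 without any 1 of 5 gi libraries and 21 without replicate 3 at 22 °C, and 67 without wild type at 22 °C replicate 1. None of the 4 genes named above was among the 18. A missed threshold does not show that responses were alike.

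Each chromosome named in the IDs held genes of both directions. The share of tested genes raised lay between 14.2% on A02 and 19.2% on A10, and the share lowered between 13.5% on A10 and 15.6% on A06. Among the 108 tested genes placed on no chromosome, 22 were raised and 3 lowered. Chromosome A04 held 7.73% of the counts at 37 °C and 10.9% at 22 °C, and A02 held 10.6% and 8.48%. Neighbours were compared too. Where the next ID along the chromosome was tested too, it was also raised for 22.3% of 3280 raised genes, against 16.2% of all genes tested. For genes raised at least 8-fold this was 9.65% of 705, against 3.68%. Lowered genes had a lowered neighbour in 19.1% of 2771 cases, against 14.2%. The order of IDs was taken as order along the chromosome and was not checked against a genome, and reads split between neighbouring copies were not tested for.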

How the data were processed

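For each library the authors deposited raw counts, as whole reads per gene with no normalization. Libraries were prepared from DNase-treated total RNA with a stranded mRNA kit and run on an Illumina NovaSeq, per the labels' protocols. Per the submitters' processing notes, the tools were FastQC, TopHat2, HTSeq and edgeR, with no version given. Genome build, annotation release and strand setting: not given in the sources used here. The 5 last rows of each table, which count reads outside genes, were left out of library sizes. Of the reads in all rows but that for unaligned reads, 90.0% to 91.6% lay in genes. Of 47249 gene IDs, 0 matched the RefSeq gene table at hand (CAAS_Brap_v3.01), so the gene lists of known families that had been listed were not analysed here.

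The tests used edgeR 4.0.16 under R 4.3.3. Low genes were removed with filterByExpr (minimum count 10, minimum total 15). After TMM scaling, all 12 libraries entered a single quasi-likelihood fit with a mean for each of the 4 groups. Called genes had a Benjamini-Hochberg adjusted p under 0.05. A standard error is the log2 change over the root of its F value. The procedure was tested on simulated data, where it missed most of the genes changed 2-fold. A gene not called is therefore not shown to be unchanged. Shares of counts are percentages of all counts in genes. Level classes have edges at 1, 10, 100 and 1000 CPM. Genes were named by rule: called, with no overlap between temperatures, and among the 2 largest gains or 2 largest losses in mean share of counts. The libraries compared and all choices were made with earlier results of these data known. Alternatives were RLE and total-count scaling, DESeq2 1.42.0, no filter, gi libraries alone, a replicate block, stricter thresholds, other level definitions and leaving out each library.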

Additional observations from a re-analysis of the deposited data

Results flagged for a closer look

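Heat changed 18 genes in gi plants whose heat response also differed from that of wild type by the interaction test of edgeR, 13 raised and 5 lowered in gi. They are flagged because the difference between genotypes was itself tested. They are 0.205% of the genes heat changed in gi, against 0.118% of all genes tested. Both tests share the change in gi, so this comparison is a description. Without 1 gi library the number was 7, 5 and 21 (replicates 1, 2 and 3 at 22 °C) and 8, 6 and 6 (replicates 1, 2 and 3 at 37 °C).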

How the results depend on the processing

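With total counts in place of TMM, 2520 genes were raised and 11075 lowered, and 49.5% of genes at 1000 CPM or more were raised and 33.3% lowered. Against a fold of 1.5 (glmTreat) 2890 genes were raised and 1825 lowered, and at an adjusted p under 0.01 3057 and 1853. The counts stayed within 1.5 times of those reported with RLE scaling, DESeq2, no filter, the gi libraries alone and both fits with a replicate block. Leaving out single libraries, wild type included, gave 3618 to 5385 raised and 2460 to 5229 lowered genes. The highest counts came without wild type at 22 °C replicate 1, which is no part of the contrast. The cause of these shifts was not tested.

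With classes by the level of unheated gi, heated gi and unheated wild type, the share raised at 1000 CPM or more was 1.59%, 77.1% and 0%, and the share lowered 30.2%, 0.714% and 27.8%. This follows from the classes holding different genes.

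Replicate numbers did not pair gi libraries across temperatures: the deviations of same-number libraries had correlations of 0.182, -0.323 and 0.262, and not every library correlated best with its own number. With the replicate block 4520 genes were raised and 3763 lowered, and 9 in place of 18 called genes differed from wild type in their response. Leaving out single libraries gave 5 to 67 such genes (67 without wild type at 22 °C replicate 1, chosen after seeing the data), 11.6 to 13.8 points for the 100 most abundant genes, 39.6 to 42.5 points for genes raised in wild type and -9.88 to -9.07 for genes lowered there. With 2 libraries against 3, the smallest exact permutation p is 0.2 here. Of the 4 named genes, 3 stayed called under 13 alternatives and BraA02g005690.3.5C under 9.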

Other observations

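The spread between replicates differed between classes of genes. The calls that set these classes used the spread of the same libraries, so the comparison is a description. At 10 to 100 CPM the median SD of log2 levels among raised genes was 0.26 at 37 °C and 0.18 at 22 °C, and among lowered genes 0.16 and 0.20. Genes not called had 0.17 and 0.20. At 1000 CPM and over, raised genes had 0.33 at both temperatures. Replicate 1 at 37 °C, with the highest share of counts in raised genes, is part of these values, and its part in them was not tested.

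The gi libraries at 37 °C differed in the size of the response measured under TMM. Levels were compared with those of the unheated gi libraries after adding 0.5 CPM, which shrinks the changes of low genes. In 1051 genes chosen as raised at least 8-fold in wild type, the median log2 difference was 3.69, 3.24 and 3.07 in replicates 1, 2 and 3. In 534 genes lowered at least 8-fold in wild type it was -1.17, -0.93 and -0.85. The edgeR fit, without this addition, gave median log2 changes in gi of 4.21 for the raised set and -2.19 for the lowered set. Under TMM, the library with the stronger rise was also the one with the stronger fall. That library, replicate 1, had the lowest TMM factor (0.673, against 0.864 and 0.910), and a lower factor raises every level in a library. As shares of counts, which use no factor, the raised set held 41.8%, 37.9% and 36.3% in replicates 1, 2 and 3. The lowered set held 0.0503%, 0.0628% and 0.0833%. How much of the differences in size came from scaling was not tested.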
